A study of Mus musculus with 180 samples.

Results

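Fetal liver haematopoietic stem cells (FL HSC) were divided by a single transcript, Birc5, into 21 Birc5-expressing cells, at 1 TPM (the StringTie unit of transcripts scaled to a fixed total in each cell) or more, and 35 Birc5-negative cells, below 1 TPM. These 56 cells are part of a series of 180 single-cell RNA-seq libraries, with 1 library for each sorted cell. Because the cells were chosen by their Birc5 level, Birc5 itself is given only as a description, and genes that travel with it in the same cells were bound to differ between the groups to some degree. The FL HSC came from Day14.5 Rosa LSL-Hoxb5-EGFP/+ embryos on a C57BL/6 background and were sorted as lineage-negative CD150+CD11b+ cells that carried CD45.2, Sca1 and c-kit. The allele carries Hoxb5-EGFP behind a stop cassette and no Cre is named for these embryos. The submitters' source field gives bone marrow for all libraries, FL HSC included, whereas the cell type and growth fields give fetal liver. For comparison, CD11b+CD48+SK cells (47 cells, donor-derived, Week 8 post-transplantation, grown in irradiated recipients from MPP of Mx1cre/Rosa LSL-Hoxb5-EGFP/+ mice in which pIpC induced Hoxb5; Mx1cre acts in many haematopoietic and other cells) were divided by the same rule. BM HSC and WT-MPP came from Rosa LSL-Hoxb5-EGFP/+ mice of 8 weeks. The labels tie no cell to an embryo or mouse, and a population was therefore treated as 1 sample. Accordingly, no test between the groups was made, and every difference below describes these cells.

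Birc5 encodes survivin, an inhibitor-of-apoptosis family protein that also serves as a subunit of the chromosomal passenger complex, together with the kinase Aurkb, the scaffold Incenp and Cdca8 (borealin). This complex corrects the attachment of chromosomes to the spindle and takes part in cytokinesis. Birc5 transcript is low in G0 and G1 and accumulates as cells go through S phase, G2 and mitosis, and fetal liver HSC are known as a cycling stem cell pool, in contrast to the mostly quiescent adult HSC. Late cell cycle promoters are known for the CHR element (TTTGAA), read by the MuvB complexes with B-Myb and FoxM1 or with p130, often with upstream CCAAT boxes read by NF-Y, whereas DNA replication promoters are known for E2F sites.

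The Birc5 gene lies at chr11:117849237-117855743 (GRCm38.p6, + strand). The 150 bases upstream of the annotated start are shown for Birc5 and for 5 genes among those higher in Birc5-expressing FL HSC, chosen after their values were seen because the CHR element falls before the start (RefSeq, GRCm38.p6, each on its own strand, 5′ to 3′). Capitals mark TTTGAA and CCAAT on either strand.
Birc5 (chr11:117849087-117849236, + strand): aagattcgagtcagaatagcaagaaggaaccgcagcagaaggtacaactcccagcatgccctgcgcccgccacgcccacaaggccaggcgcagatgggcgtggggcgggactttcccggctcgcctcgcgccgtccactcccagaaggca
Ube2c (chr2:164769779-164769928, + strand): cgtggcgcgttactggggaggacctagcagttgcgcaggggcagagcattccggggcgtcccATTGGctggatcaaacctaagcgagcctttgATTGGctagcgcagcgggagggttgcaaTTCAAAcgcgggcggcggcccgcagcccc
Cdc20 (chr4:118437344-118437493, - strand): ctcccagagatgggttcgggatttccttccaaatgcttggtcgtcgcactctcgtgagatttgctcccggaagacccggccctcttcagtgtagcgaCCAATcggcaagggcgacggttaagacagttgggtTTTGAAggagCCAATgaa
Cdk1 (chr10:69352913-69353062, - strand): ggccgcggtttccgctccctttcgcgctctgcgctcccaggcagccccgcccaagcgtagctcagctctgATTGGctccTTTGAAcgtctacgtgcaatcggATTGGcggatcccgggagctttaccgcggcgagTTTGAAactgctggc
Top2a (chr11:99024190-99024339, - strand): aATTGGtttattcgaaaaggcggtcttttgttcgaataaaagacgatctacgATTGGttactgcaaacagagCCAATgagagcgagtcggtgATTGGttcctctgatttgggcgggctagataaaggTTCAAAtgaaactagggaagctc
Kif22 (chr7:127042421-127042570, - strand): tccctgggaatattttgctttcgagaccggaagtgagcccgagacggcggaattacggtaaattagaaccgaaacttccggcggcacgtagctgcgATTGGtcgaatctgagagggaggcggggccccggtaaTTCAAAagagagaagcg
Counted from the start site, Ube2c held the CHR letters at -29, Cdc20 at -18, Cdk1 at -71 and -15, Top2a at -179 and -23 and Kif22 at -215 and -17, and CCAAT boxes lay upstream of the nearest CHR match in each of these 5. The Birc5 window held neither set of letters. Ube2c encodes the ubiquitin-conjugating enzyme of the anaphase-promoting complex, Cdc20 its activator, Cdk1 the mitotic kinase, Top2a topoisomerase II and Kif22 a chromosome-arm kinesin.

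Birc5 was present in 21 of 56 FL HSC (37.5%, 95% interval by the exact Clopper-Pearson method 24.9 to 51.5%, which allows for cell counting and for no other error). Among the Birc5-expressing cells the level ran from 1.27 TPM to 1722 TPM around a median of 725 TPM. Only 2 of the 21 lay between 1 and 10 TPM, at 1.27 and 1.81 TPM, and the next cell lay at 62.7 TPM. Just outside the threshold, the highest Birc5-negative cells had 0.831 and 0.606 TPM, and 17 of the 35 had exactly 0. Birc5 was present in 19 of 47 CD11b+CD48+SK cells (40.4%, 26.4 to 55.7%) and in 4 of 41 WT-MPP (9.76%, 2.72 to 23.1%). It was present in 0 of 36 BM HSC (0 to 9.74%). The split therefore had enough cells on both sides only among FL HSC and among CD11b+CD48+SK cells.

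The labelled identity was examined against the genes behind the sort in both groups. Kit transcript was present in 18 of 21 Birc5-expressing and 30 of 35 Birc5-negative cells, Ptprc (CD45) in 19 and 27, and Ly6a (Sca1) in 19 and 32. Itgam, which encodes the CD11b used in the sort, was present in only 2 of 21 and 7 of 35 cells, and Slamf1 (CD150) in 11 and 20. Procr, an HSC receptor that was not in the sort, was present in 19 and 31 cells. Depth as read counts is not held by TPM, so the number of genes at 1 TPM or more stands for it here. That number ran from 4185 to 6761 (median 5442) in Birc5-expressing cells and from 3974 to 6789 (median 4997) in Birc5-negative cells, a difference of 445 between medians within overlapping ranges. No cell carried both Xist and a Y-linked transcript at 1 TPM. The summed level of each of 8 lists of other cell types overlapped between the groups. The erythroid sum, for example, ran from 1162 to 11837 TPM (median 5979) in Birc5-expressing cells and from 1030 to 19320 TPM (median 5820) in Birc5-negative cells. Of 16 erythroid markers, 10 reached 1 TPM in at least 10% of FL HSC. However, Gata1 was present in only 1 Birc5-expressing and 3 Birc5-negative cells, and Klf1 in 0 and 2. The hepatocyte sum had medians of 57.8 and 80.0 TPM, and Alb, its defining gene, was present in 1 Birc5-expressing and 0 Birc5-negative cells. The neutrophil and monocyte sum had medians of 1756 and 1978 TPM, the megakaryocyte sum 559 and 822 TPM and the lymphoid sum 232 and 273 TPM. The mast cell, macrophage and stroma sums had medians of 0 in both groups. Of 19 neutrophil and monocyte markers, 8 reached 1 TPM in at least 10% of FL HSC, whereas Elane was present in 1 cell of each group. At 0 in all 56 cells were 4 of 19 neutrophil and monocyte, 1 of 15 megakaryocyte, 6 of 16 lymphoid, 3 of 6 mast cell, 1 of 11 macrophage, 1 of 6 hepatocyte and 1 of 5 stroma markers.

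The genes with the largest differences encode the machinery of chromosome segregation. Values per gene are given in TPM for cells, and the difference is always the mean log2(TPM + 1) of Birc5-expressing cells minus that of Birc5-negative cells. Ube2c ran from 0.54 to 2916 TPM (median 231) in Birc5-expressing cells and from 0 to 92.2 TPM (median 0) in Birc5-negative cells. It was present in 18 of 21 cells (85.7%, 63.7 to 97.0%) against 12 of 35 (34.3%, 19.1 to 52.2%), and its difference of 6.83 exceeded that of all other genes. No Birc5-negative cell reached the Birc5-expressing median of Ube2c, although the ranges overlapped at their ends. Pbk, a mitotic kinase, ran from 0 to 1155 TPM (median 228) against 0 to 103 TPM (median 0), and was present in 19 and 3 cells (difference 6.34). Cdca3, which promotes the turnover of the mitotic inhibitor Wee1, ran from 0 to 926 TPM (median 228) against 0 to 95 TPM (median 0) and was present in 17 and 3 cells (6.14). For Pbk and Cdca3, too, the Birc5-negative cells with a value above the bulk were few, and none reached the Birc5-expressing median.

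Of the partners of survivin in the chromosomal passenger complex, Aurkb and Cdca8 stood near the top. Aurkb ran from 0 to 783 TPM (median 269) in Birc5-expressing cells and from 0 to 1.81 TPM in Birc5-negative cells, where 1 of 35 cells passed 1 TPM (2.86%, 0.0723 to 14.9%), against 16 of 21 (76.2%, 52.8 to 91.8%). The difference for Aurkb was 6.05 with an SD over cells of 3.66 in the first group and 0.38 in the second. Cdca8 ran from 0 to 1234 TPM (median 395) against 0 to 209 TPM (median 0.35), with a difference of 6.01. Incenp was present in 15 and 8 cells, with a smaller difference of 2.91. Thus all 3 partner genes were higher in the cells chosen by Birc5, and Incenp least. Of the 109 genes in the mitosis lists described below, 99 were also higher by 1 or more, and Incenp lay at their median of 2.91.

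The other genes among the 20 largest differences were 2810417H13Rik (current name Pclaf, a PCNA-binding factor; 6.24), the centromere genes Cenpk (5.92) and Cenpn (5.18), the cyclins Ccna2 and Ccnb2 (both 5.39), Shcbp1 (5.37), the spindle gene Nusap1 (5.35), the Ndc80-complex subunit Spc25 (5.34), the Cdk1-inhibitory kinase Pkmyt1 (5.30), Kif22 (5.29), the centralspindlin subunit Racgap1 (5.25), the kinase Plk1 (5.17), the DNA glycosylase Neil3 (5.17), the centromere licensing gene Oip5 (5.14) and Fam64a (current name Pimreg; 5.13). All of these lie in the mitosis lists except 2810417H13Rik, Pkmyt1 and Neil3. Genes that were on in many Birc5-expressing cells and off in all Birc5-negative cells were of the same kind. There were 17 genes at 1 TPM or more in at least 10 Birc5-expressing cells and in 0 of 35 Birc5-negative cells. A count of 0 of 35 allows up to 8.57% by the approximate rule of 3 over the number of cells. Of the 17 genes, 15 belonged to the cell cycle lists, which hold 343 of the 9890 kept genes. Such genes passed the filter on low values only through the Birc5-expressing cells, so the count is a description. Among them were Tpx2, the spindle assembly factor that activates Aurka (15 of 21 cells, median 48 TPM), the centromere gene Cenpi (13 cells), Casc5 (current name Knl1, the kinetochore scaffold; 13 cells), the kinesins Kif11 and Kif15 (11 and 12 cells) and the abscission gene Cep55 (13 cells). The remaining 2 were Depdc1b (12 cells) and the cohesin acetyltransferase Esco2 (14 cells).

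**Figure D1:**
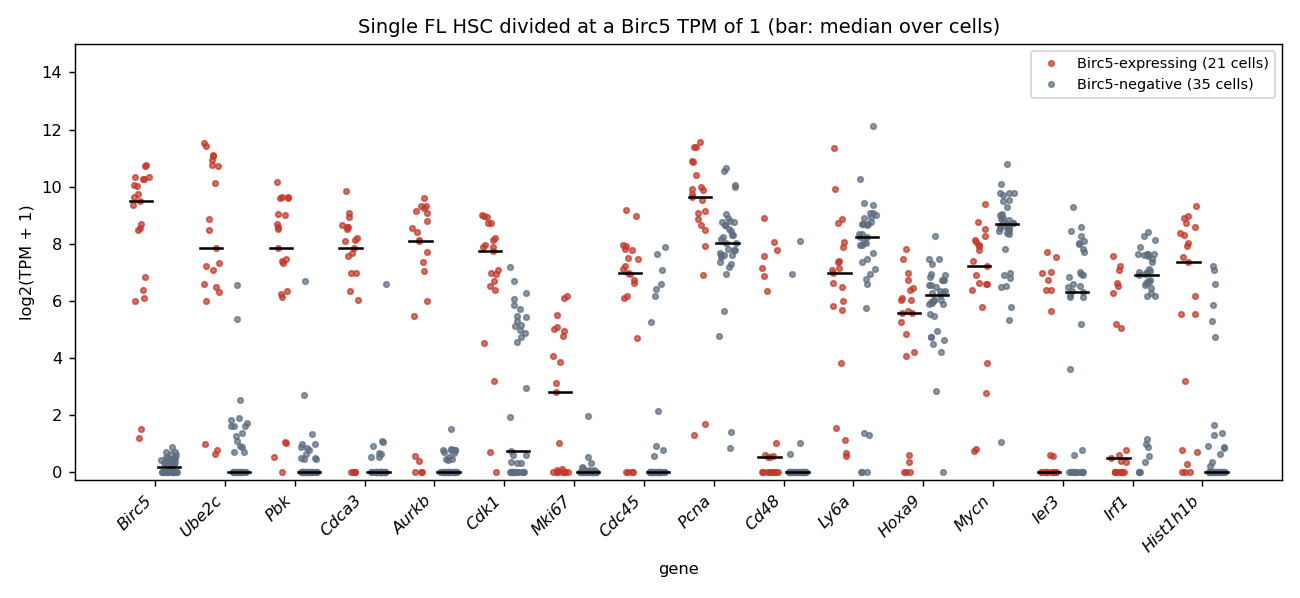
Level of 16 genes in single FL HSC on the log2(TPM + 1) scale, with 1 point per cell and a black bar at the median over cells, for Birc5-expressing (red, 21 cells) and Birc5-negative (grey, 35 cells) cells. Ube2c, Pbk, Cdca3 and Aurkb are near 0 in most grey cells and have red medians of 228 to 269 TPM, whereas Ly6a, Hoxa9, Mycn, Ier3 and Irf1 have lower red than grey medians with wide overlap.

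Across the 9890 genes at 1 TPM or more in at least 10% of FL HSC, 1201 (12.1%) were higher by 1 or more on the log2 scale in Birc5-expressing cells and 522 (5.28%) were lower by 1 or more. The median difference over all of these genes was 0.10. These counts moved with the scale (332 and 68 with a pseudocount of 10, 2285 and 1043 with 0.1, and 834 and 1082 from the log2 of mean TPM, where lower genes outnumbered higher ones), so they serve as the background for the lists below and not as a number of changed genes. Because the split used a gene of the same cells, nothing is read from the excess of a list over the background beyond the count itself.

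Among kinetochore and checkpoint genes, 39 of 42 were higher by 1 or more and none was lower by 1 or more (median difference 2.99), from Mis12 (0.41) to Aurkb. Zwint (0.95) and Cenpt (0.70) were the other two below 1. Among spindle and cytokinesis genes, all 39 kept were higher by 1 or more (median 2.96), from Cit (1.18), the citron kinase of the midbody, to Cdca3. Among mitotic kinases, cyclins and subunits or regulators of the anaphase-promoting complex, 22 of 29 were higher (median 2.23). The members below 1 included Wee1 (0.27), the kinase that restrains Cdk1, and Fzr1 (-0.05), the late mitotic activator Cdh1. Pttg1, which encodes securin, ran from 0 to 670 TPM (median 63.1) in Birc5-expressing and from 0 to 819 TPM (median 92.3) in Birc5-negative cells. At -0.94 it was the lowest of the 109 mitosis genes. Under the alternatives this value ran from -1.33 (pseudocount of 0.1) to -0.12 (log2 of mean TPM). It was -0.44 with Birc5 at 10 TPM or more against below 1 TPM. Over these 3 lists together, 99 of 109 genes (90.8%) were higher by 1 or more, with a median of 2.91.

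The DNA replication list differed less and more evenly. It had 46 of 56 genes higher by 1 or more (82.1%) and none lower by 1 or more, with a median of 1.78. Cdc45, the helicase cofactor, was highest (4.39): it was present in 17 of 21 cells at a median of 125 TPM, against 8 of 35 cells at a median of 0. Gmnn, whose product geminin blocks relicensing, ran from 94.3 to 975 TPM (median 400) in Birc5-expressing cells and from 0 to 648 TPM (median 62.8) in Birc5-negative cells (difference 4.29), so that all 21 Birc5-expressing cells but only 26 of 35 Birc5-negative cells carried it. Mcm7 differed by 3.37, Mcm5 by 2.28, Mcm3 by 1.14, Mcm4 by 1.08, Mcm2 by 1.04 and Mcm6 by 0.44, although all 6 are subunits of the same helicase. Pcna, the sliding clamp, was present in nearly all cells of both groups (21 of 21 and 34 of 35), at medians of 796 and 261 TPM. The licensing gene Cdc6 (0.75) and the origin recognition subunits Orc2 (0.47), Orc6 (0.42) and Orc4 (-0.16) lay at the lower end.

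Nucleotide synthesis genes followed with 14 of 29 higher by 1 or more (median 0.95, but 0.44 within strata of cells by detected genes, 0.46 from the log2 of mean TPM and 0.33 with cells divided at Birc5 above 0 TPM). The deoxynucleotide enzymes Tk1 (5.09, present in 16 and 5 cells), Rrm2 (3.63), Tyms (2.24) and Rrm1 (1.79) led. However, Dctd (-1.03), which also acts on deoxynucleotides, was the lowest of the list. The purine enzymes Paics (-0.01), Ppat (0.09) and Atic (0.17) lay near 0. Of the DNA repair and checkpoint genes 19 of 33 were higher (median 1.12), with Trip13 (4.65) and Eme1 (4.08) at one end and Nbn (-0.60) at the other. Chromosome structure genes were higher in 19 of 29 cases (median 1.4). The condensin genes Ncapd2 (3.86), Ncaph (3.75), Smc2 (3.46) and Ncapg (3.41) and the proliferation marker Mki67 (2.41, present in 12 and 1 cells) lay well above the cohesin genes Smc3 (0.18), Stag2 (0.03) and Smc1a (-0.34). Replication-dependent histone genes were higher in 44 of 65 cases (median 1.52). The linker histone Hist1h1b led (4.15), present in 15 of 21 against 9 of 35 cells, and Hist1h2bc (-1.07) was the only one lower by 1 or more. Histone genes share long stretches of sequence, as do tubulins, so that reads may be divided among copies and single members are uncertain. Of the tubulins and stathmin 8 of 11 were higher (median 1.58), and Tuba1a rank-ordered the cells most like Birc5 among genes present in every cell: it ran from 233 to 831 TPM (median 522) in Birc5-expressing cells and from 17.7 to 437 TPM (median 124) in Birc5-negative cells, with none of the latter at the median of the former.

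**Figure D2:**
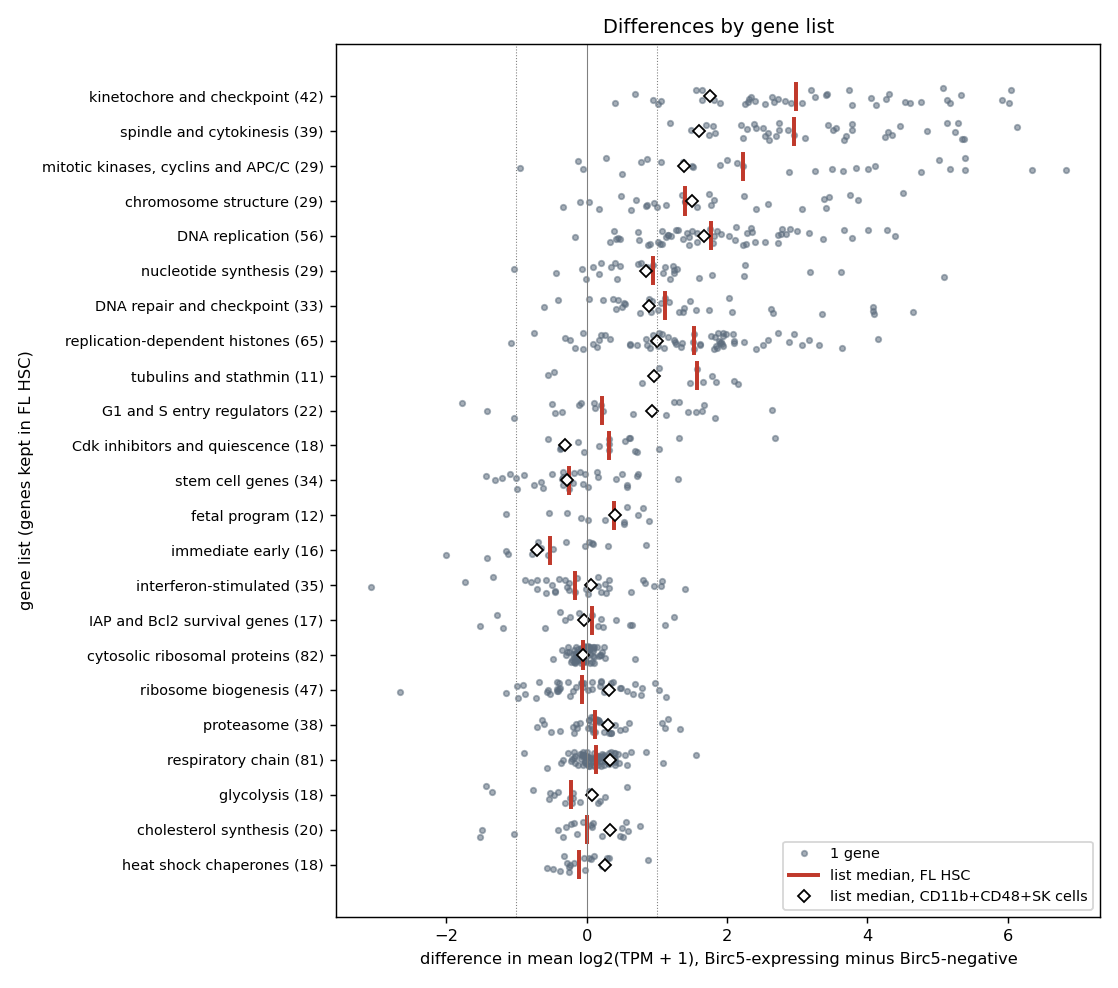
Difference in mean log2(TPM + 1) between Birc5-expressing and Birc5-negative cells for the genes of 23 lists, with 1 grey point per gene, a red bar at the list median in FL HSC, a diamond at the list median in CD11b+CD48+SK cells and dotted lines at -1 and 1. The mitosis, replication and histone lists lie to the right (medians 1.52 to 2.99), ribosomal proteins cluster at -0.05, and the immediate early list has a negative median in both populations (-0.52 and -0.70).

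The genes whose level ranked the 56 FL HSC most like Birc5 were Pbk, Tpx2, Oip5, Cdca8, Tuba1a, Cenpi, Ube2c, Ccna2, Ankle1 and Casc5, with Spearman rho from 0.75 to 0.80. These values describe cells that share the library protocol and differ in the number of genes detected, and Birc5 itself ran with that number at a rho of 0.33 over the same 56 cells.

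The cells were then described 1 by 1. The mean log2(TPM + 1) over the mitosis genes lay between 0.84 and 1.87 (median 1.08) in Birc5-negative cells and between 0.82 and 6.47 (median 4.47) in Birc5-expressing cells, and 17 of 21 Birc5-expressing cells lay above every Birc5-negative cell. The 4 others were the cells at 1.27, 1.81, 67.3 and 81.6 TPM of Birc5, with means of 0.82, 0.94, 1.56 and 1.37. The cells at 1.27 and 1.81 TPM therefore sat below the Birc5-negative median. Of the late genes Top2a, Mki67, Ccnb1, Cdc20, Plk1 and Aurkb, 9 Birc5-expressing cells carried all 6 and 15 carried at least 4, while no Birc5-negative cell carried more than 3 and 12 of 35 carried none. Birc5-negative cells with a trace of Birc5 (18 cells above 0) and those at exactly 0 (17 cells) had median mitosis means of 1.10 and 1.06.

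The DNA replication mean separated the groups less, from 1.63 to 5.91 (median 3.09) in Birc5-negative and from 2.56 to 7.22 (median 5.10) in Birc5-expressing cells. There were 4 Birc5-negative cells above the Birc5-expressing median, at 5.34, 5.38, 5.43 and 5.91, and their mitosis means were 1.49, 1.32, 1.87 and 1.56. Conversely, 2 Birc5-expressing cells with Birc5 at 62.7 and 114 TPM combined replication means of 6.94 and 6.51 with mitosis means of only 2.32 and 2.89. The 2 cells with the highest mitosis means (6.47 and 6.42) had replication means of 5.0 and 5.24, below the highest replication mean of 7.22, which was found at a mitosis mean of 4.05. In addition, 1 cell with a mitosis mean of 6.23 had a histone mean of 1.3, the lowest among the Birc5-expressing cells, against a median of 4.37. The group chosen by Birc5 was thus not uniform, and its cells differed in the balance of replication and mitosis genes as well as in their level.

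**Figure D3:**
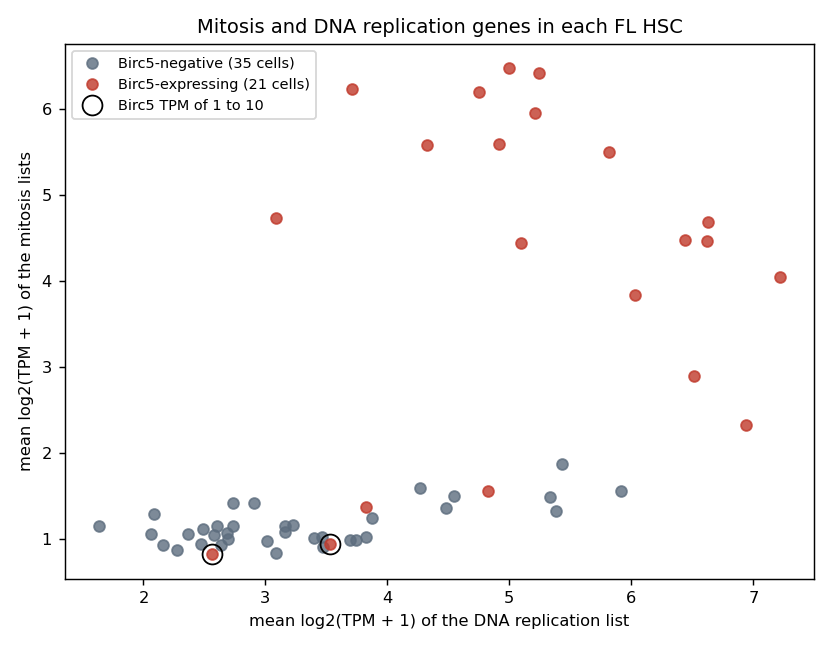
Mean log2(TPM + 1) of the DNA replication list (x axis) and of the mitosis lists (y axis) in each FL HSC, with 1 point per cell coloured by Birc5 group and black rings around the 2 Birc5-expressing cells below 10 TPM. Grey cells stay at or below a mitosis mean of 1.87 across replication means of 1.63 to 5.91, and the ringed cells lie among them.

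The regulators of cell cycle entry lay in both directions. Among G1 and S entry regulators 9 of 22 were higher by 1 or more and 3 were lower by 1 or more (median 0.22). Higher were Mybl2 (2.64), which encodes the B-Myb of late cell cycle promoters, Skp2 (1.82), Ccne1 (1.67), Ccne2 (1.55) and E2f8 (1.31) among others, whereas E2f1 (0.12), Cdk4 (0.20) and Cdk6 (0.11) lay near 0. Lower were Mycn (-1.77), Ccnd1 (-1.42) and Ccnd2 (-1.04). Mycn, the Myc family member abundant in HSC, ran from 0.67 to 666 TPM (median 148) in Birc5-expressing cells and from 1.08 to 1767 TPM (median 414) in Birc5-negative cells. Ccnd1, a D-type cyclin of G1, was present in 5 of 21 (23.8%, 8.22 to 47.2%) against 17 of 35 cells (48.6%, 31.4 to 66.0%), with overlapping intervals. Among Cdk inhibitors and quiescence genes 3 of 18 were higher, Ccng2 (2.68), Tob1 (1.31) and Rbl1 (1.03), and none was lower. Cdkn1c, the inhibitor p57 of quiescent HSC, was present in 18 of 21 and 30 of 35 cells (0.33).

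Stem cell genes leaned slightly the other way. Of 34 genes, 24 had a negative difference and 10 a positive one, against 4332 and 5558 of all 9890 kept genes. The list median was -0.26 against 0.10 over all genes, but only 5 of the 34 were lower by 1 or more and 1 was higher by 1 or more. The 5 were Hoxa10 (-1.44), Hoxa9 (-1.31), Nkx2-3 (-1.21), Ly6a (-1.09) and Gfi1b (-1.01), and the higher one was Meis1 (1.3). Hoxa9, a homeobox regulator of HSC expansion, ran from 0 to 223 TPM (median 46.6) in Birc5-expressing and from 0 to 310 TPM (median 72.1) in Birc5-negative cells, with 16 of 21 and 34 of 35 cells positive. Meis1, its cofactor, ran from 30.4 to 249 TPM (median 115) against 0 to 398 TPM (median 83.7), and 13 Birc5-negative cells lay above the Birc5-expressing median. The differences of Ly6a, Hoxa10 and Meis1 took the opposite sign when cells were divided at Birc5 above 0 TPM (0.11, 0.38 and -0.10). Mecom (0.16), Kit (-0.09) and Procr (-0.29) were similar in the groups relative to SDs over cells above 2. Hoxb5, the gene of the transgene, was present in 11 of 21 (52.4%, 29.8 to 74.3%) and 21 of 35 cells (60%, 42.1 to 76.1%), at medians of 5.89 and 6.33 TPM (difference -0.33), and its difference was 1.15 when cells were divided at Birc5 above 0 TPM.

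Of the sort and progenitor surface genes, Cd48 had the largest difference. CD48 is a surface protein found on multipotent and committed progenitors and is low on adult HSC, and it was not part of the FL HSC sort. Cd48 transcript was present in 8 of 21 Birc5-expressing cells (38.1%, 18.1 to 61.6%) and 2 of 35 Birc5-negative cells (5.71%, 0.700 to 19.2%), with highest values of 472 and 274 TPM and a difference of 2.18. Flt3, a marker of lymphoid-primed progenitors, differed by 0.21. Csf3r, the receptor of granulocyte colony-stimulating factor, was lower in Birc5-expressing cells (-1.90, present in 7 and 22 cells). The fetal RNA-binding and chromatin genes Lin28b (0.73), Hmga2 (0.57), Igf2bp3 (0.88) and Igf2bp2 (0.53) differed by less than 1, and in the fetal list only Arid3a (-1.15) passed 1 in either direction.

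The largest negative differences belonged to genes of no common list. Irf1, a transcription factor of the interferon response, ran from 0 to 188 TPM (median 0.38) in Birc5-expressing cells and from 0 to 334 TPM (median 120) in Birc5-negative cells. It was present in 8 of 21 (38.1%, 18.1 to 61.6%) against 28 of 35 cells (80%, 63.1 to 91.6%), with a difference of -3.07. These intervals cover the counting of cells only and are no test between the groups. Under the alternatives the Irf1 difference ran from -4.23 (pseudocount of 0.1) to -1.54 (within the Y-linked and Xist strata). Tmem230, a transmembrane protein of vesicle traffic, was present in 11 of 21 and 31 of 35 cells (-3.03). Pes1, a factor of large ribosomal subunit assembly, was present in 12 of 21 and 32 of 35 cells, at medians of 5.24 and 70.6 TPM (-2.65). The others of the 10 lowest were Pja1 (-2.94), Mira (-2.84), Lsr (-2.63), Tmem191c (-2.53), Ppapdc1b (current name Plpp5, -2.52), Speg (-2.42) and Abhd14b (-2.29). All 10 stayed negative under every alternative, but their size varied. Tmem230 shrank to -0.96 from the log2 of mean TPM and Speg to -0.62 within the Y-linked and Xist strata. Abhd14b shrank to -0.10 with cells divided at Birc5 above 0 TPM. No gene was present in 17 or more Birc5-negative cells and absent from all 21 Birc5-expressing cells. A count of 0 of 21 allows up to 14.3% by the approximate rule of 3 over the number of cells.

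Several large functional groups differed little. Of 82 cytosolic ribosomal protein genes none passed 1 in either direction (median -0.05, from -0.48 for Rpl22 to 0.68 for Rpl34), and they made up 7.78 to 14.6% of the TPM of Birc5-expressing cells (median 12%) and 8.33 to 16.3% of that of Birc5-negative cells (median 12.3%). Of 47 ribosome biogenesis genes, 2 were higher, Lyar (1.13) and Rcl1 (1.03), and 2 lower, Nip7 (-1.14) and Pes1 (median -0.06). Of 81 respiratory chain genes 2 were higher by 1 or more and none lower by 1 or more (median 0.14), and of 38 proteasome genes 4 were higher (median 0.13). Of 18 glycolysis genes the glucose transporters Slc2a3 (-1.43) and Slc2a1 (-1.34) were lower and none was higher (median -0.22). The cholesterol synthesis genes Sqle (-1.52), Sc4mol (-1.48) and Mvd (-1.03) were lower among 20 (median 0.01). Heat shock chaperones had no member past 1 among 18 (median -0.11). Interferon-stimulated genes went both ways: Ifi47 (1.4), Psmb9 (1.07) and Gbp2 (1.06) were higher and Irf1, Gbp7 (-1.74) and Irf7 (-1.34) lower among 35 (median -0.17). Among 17 survival genes related to Birc5 by family or function, 2 were higher by 1 or more, the inhibitor of apoptosis Birc2 (1.12) among them, whereas the BH3-only genes Bbc3 (-1.52) and Bid (-1.19) and the pro-survival Bcl2l1 (-1.27) were lower (median 0.08). Xiap (0.64) and Birc6 (-0.23) did not pass 1.

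Immediate early genes, which respond within minutes to growth factors and to handling, had the lowest list median (-0.52) among lists of more than 10 genes. Of 16, 4 were lower by 1 or more and none higher by 1 or more. Ier3 was present in 8 of 21 and 23 of 35 cells, at medians of 0 and 77.5 TPM (-2.0). Zfp36, which promotes mRNA decay, had medians of 191 and 291 TPM (-1.41), and Jund (-1.14) and Fos (-1.12) followed. Fos was present in 12 of 21 and 25 of 35 cells, at medians of 71.9 and 81.1 TPM, so the groups overlapped widely.

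To see which differences were found again in cells that the FL HSC division did not use, CD11b+CD48+SK cells were divided by the same rule into 19 Birc5-expressing and 28 Birc5-negative cells. In that population 1502 of 9101 genes (16.5%) were higher by 1 or more and 481 (5.29%) lower by 1 or more, and its median difference was 0.18. Here, too, Birc5-expressing cells had more genes at 1 TPM, with a median of 4900 against 4347. Of the 1109 genes higher in FL HSC that were kept in CD11b+CD48+SK cells, 857 (77.3%) had a positive and 252 (22.7%) a negative difference, with a median of 0.77, while 460 (41.5%) were higher by 1 or more and 38 (3.43%) lower by 1 or more. The 460 made up 38.3% of the FL HSC genes and 30.6% of the CD11b+CD48+SK genes. Computed within cells of few and of many detected genes and averaged, the median of 0.77 became 0.36, while that of all genes moved from 0.18 to -0.03. In FL HSC the same strata gave a median of 2.66 for mitosis genes and of 1.25 for DNA replication genes, against 2.91 and 1.78 over all cells.

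Among genes higher in FL HSC, the size of the difference ordered the medians in the second population. All 52 genes at 4 or more in FL HSC were positive there (median 2.68), and 51 passed 1. Of the 52 kept genes from 3 to 4, 49 were positive (median 1.67), and of the 156 from 2 to 3, 135 were positive (86.5%, median 1.20). Between 1 and 2, 621 of 849 were positive (73.1%, median 0.56), against 60.4% of all 8586 genes kept in both. Most of the large differences were cell cycle genes (44 of the 52 at 4 or more, but 104 of the 927 from 1 to 2). Genes outside the cell cycle lists were also found again: of 872, 629 were positive (72.1%, median 0.57) and 289 (33.1%) passed 1. Over all genes kept in both, 60.4% were positive and 17.2% passed 1. The lists do not hold every cell cycle gene: Pkmyt1, the Cdk1-inhibitory kinase, lies outside them. The genes outside the lists at 4 or more in FL HSC were named after their values were seen. They were 2810417H13Rik, Pkmyt1, Neil3, 1190002F15Rik (current name Lockd, a non-coding RNA), Clhc1, the histone chaperone Asf1b, Gemin6 and Mns1, and all 8 passed 1 in CD11b+CD48+SK cells. Of the 462 genes lower in FL HSC, 238 (51.5%) were positive and 224 (48.5%) negative, with a median of 0.01, while 53 (11.5%) were lower and 58 (12.6%) higher by 1 or more. Over all 8586 genes kept in both, the median was 0.19, with 5.40% lower and 17.2% higher by 1 or more. Those 53 made up 10.2% of the FL HSC genes and 11% of the CD11b+CD48+SK genes. The lower genes were not ordered by size, with CD11b+CD48+SK medians of 0.0025 from -2 to -1 and 0.29 at -2 or less (27 genes). Over the 8586 genes the differences in the 2 populations had a Spearman rho of 0.19, a value across genes, which are not independent.

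By the smaller of the 2 differences, the leading genes were 2810417H13Rik (6.24 in FL HSC and 4.90 in CD11b+CD48+SK cells), Cdca3 (6.14 and 4.31), Ccnb2 (5.39 and 4.0), Tk1 (5.09 and 3.97), Spc25 (5.34 and 3.87), Cdca8 (6.01 and 3.86), Cenpm (4.26 and 3.70), Asf1b (4.55 and 3.61), Poc1a (3.62 and 3.59) and Cenph (4.31 and 3.55). Some late genes were far apart: Plk1 differed by 5.17 and 1.07, Psrc1 by 3.11 and -0.07 and Gtse1 by 2.60 and -0.05, while Pmf1 differed by 2.30 and 4.18. By list, the median in FL HSC and in CD11b+CD48+SK cells was 2.91 and 1.60 for mitosis genes, 1.78 and 1.68 for DNA replication, 1.52 and 1.01 for histones and 0.22 and 0.94 for G1 and S entry regulators. Whether the populations differ in these values could not be tested with 1 sample each.

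The genes lowest in both were Sytl1 (-2.29 and -2.17), a synaptotagmin-like trafficking protein, Pygo2 (-1.75 and -2.06), a Wnt-pathway chromatin reader, Ddx17 (-1.61 and -1.73), an RNA helicase, Pisd (-1.60 and -2.57), the mitochondrial phosphatidylserine decarboxylase, and Pik3ip1 (-1.63 and -1.60), an inhibitor of phosphoinositide 3-kinase. Sytl1 was present in 5 of 21 and 20 of 35 FL HSC and in 8 of 19 and 19 of 28 CD11b+CD48+SK cells, and its FL HSC difference took the opposite sign (0.20) when cells were divided at Birc5 above 0 TPM. Mycn (-1.77 and -1.11), Zfp36 (-1.41 and -1.67), Fos (-1.12 and -2.38), Ier3 (-2.0 and -1.23) and Bbc3 (-1.52 and -1.04) were likewise lower by 1 or more in both. In contrast, Irf1 (-3.07 and 0.29), Tmem230 (-3.03 and -0.36), Pes1 (-2.65 and 0.13), Jund (-1.14 and 0.82) and Csf3r (-1.90 and 0.58) were not lower by 1 in CD11b+CD48+SK cells. Cd48 (2.18 and -0.26), Ccng2 (2.68 and -0.31) and Meis1 (1.3 and -1.36) were higher by 1 or more in FL HSC and negative in CD11b+CD48+SK cells, but CD11b+CD48+SK cells had been sorted for CD48 and all 47 carried Cd48 transcript. Stem cell genes had medians of -0.26 and -0.27, with 34 and 24 genes kept. Hoxb5 differed by -0.33 and -1.44, but the FL HSC value took the opposite sign (1.15) with cells divided at Birc5 above 0 TPM, and its transgene was induced in the CD11b+CD48+SK cells.

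**Figure D4:**
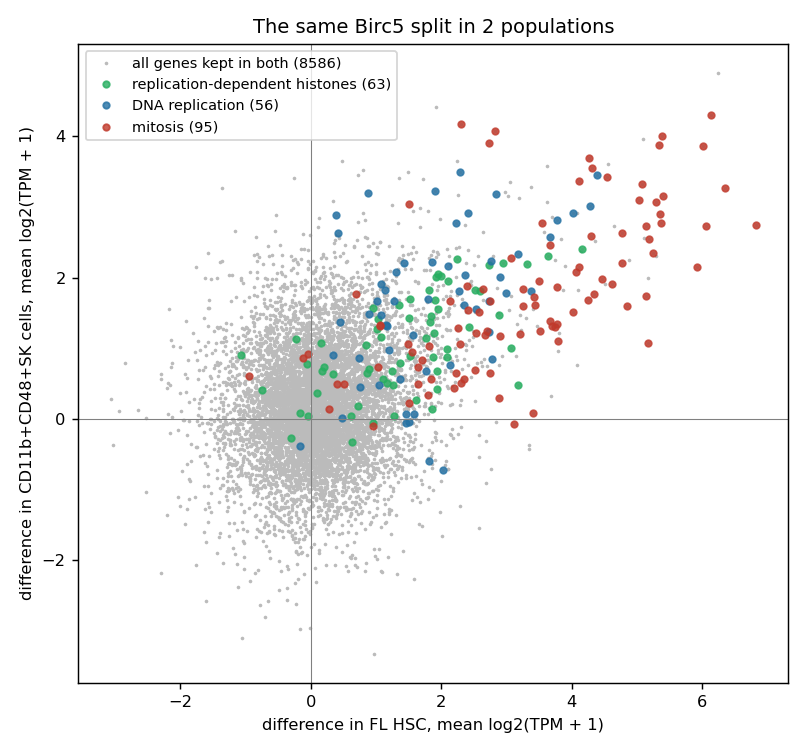
Difference between Birc5-expressing and Birc5-negative cells in mean log2(TPM + 1) in FL HSC (x axis) and in CD11b+CD48+SK cells (y axis), with 1 point per gene kept in both (8586 genes) and the mitosis, DNA replication and histone genes in colour. Coloured genes lie mostly in the upper right, where all 52 genes at 4 or more in FL HSC are positive in both, whereas genes at -1 or less in FL HSC have a median of 0.01 in CD11b+CD48+SK cells, against 0.19 over all genes plotted.

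The promoter windows of mitosis and of DNA replication genes held different letters. RefSeq windows (250 bases before to 50 after the start, 300 in all) were matched for 7946 of the 9887 current gene names, in 10101 windows. They were matched for 89 of the 109 mitosis genes and 45 of the 56 DNA replication genes, some of them with several windows. Of the 20 genes with the largest differences, 14 were matched, and Aurkb, Ccna2 and Pbk were not. The CHR letters TTTGAA, on either strand, were found in 57 of 97 windows of mitosis genes (58.8%), against 12.4% of the windows of all kept genes and 17.9% of all 32851 windows. CCAAT, on either strand, was found in 73.2% of mitosis windows against 38.5% of those of all kept genes, and both together in 48.5% against 5.23%. In contrast, 9 of 57 DNA replication windows held the CHR letters (15.8%), whereas 29 of 57 (50.9%) held TTCCCGC or TTGGCGC, the 7-letter E2F forms searched on both strands, against 15.5% of mitosis windows and 12.7% of those of all kept genes. CHR and CCAAT matches shared bases in 47 of all windows, CCAAT and E2F matches in 147, and CHR and E2F matches in 0. Ordered by the FL HSC difference, the CHR share was 45.6% at 3 or more, 28.3% from 2 to 3, 17.5% from 1 to 2, 11.5% within 1 and 8.12% at -1 or less. The genes at 2 or more outside the cell cycle lists had 19.7% (24 of 122 windows). Most mitosis matches lay close to the start, with 21 windows matching in the 50 bases before it and 30 in the 50 bases after, while in the 4 steps further upstream 2 to 7 of the 97 windows matched. These letters describe the windows and are not evidence of binding.

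**Figure D5:**
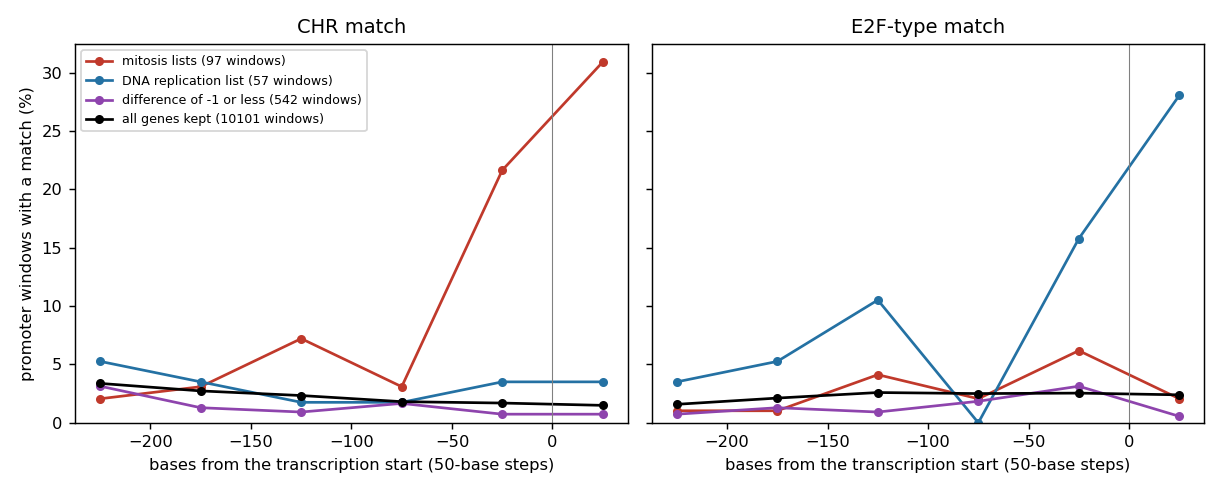
Share of promoter windows (y axis, percent) with a match that begins in each 50-base step from the transcription start (x axis, bases), for CHR letters (left) and E2F-type letters (right), in the mitosis lists, the DNA replication list, genes at -1 or less and all kept genes. The mitosis line reaches 21.6% and 30.9% next to the start on the left, and the DNA replication line 15.8% and 28.1% on the right, while all kept genes stay between 1.49% and 3.38%.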

How the data were processed

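Single cells sorted by FACS were amplified with the Discover-sc WTA Kit V2 and made into libraries with the TruePrep DNA Library Prep Kit V2 (NextSeq 500). The submitters' processing notes name bcl2fastq, HISAT2 2.1.0, SAMtools 0.1.19, StringTie 1.3.4 and mm10. The authors deposited TPM per gene symbol (14825 genes), which reach the same total in every cell and hold no read depth. A single column with no matching sample was not used (1 column).

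Differences are means of log2(TPM + 1) over cells, Birc5-expressing minus Birc5-negative. They understate the change of low genes. Genes were kept in a population if 10% or more of its cells reached 1 TPM (6 of 56 FL HSC), and Birc5 itself was left out. Shares of cells have exact Clopper-Pearson 95% intervals, which cover the counting of cells only. For genes absent from a whole Birc5 group, the limit is instead the approximate 3 over the number of cells. No test was run, because no embryo or mouse was named per cell. No doublet caller was run on these singly sorted cells, and no 2 FL HSC columns were identical. The split statistic was tested on simulated data with known changes.

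Named genes were the 20 largest positive and 10 largest negative differences, the 10 highest and 5 lowest in both FL HSC and CD11b+CD48+SK cells by the smaller difference, the 10 highest Spearman rho with Birc5, and list members by role. The members, lists and rules were chosen with earlier results of these data known. RefSeq promoter windows and gene positions use GRCm38.p6, the same assembly as mm10. Python 3.11.15, numpy 2.4.6, pandas 2.3.3, scipy 1.17.1 and matplotlib 3.10.9 were used. Alternatives changed the pseudocount, averaging, filter, scaling, Birc5 threshold, and strata of detected genes and of Y-linked or Xist transcripts. Some results are not reported here.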

Additional observations from a re-analysis of the deposited data

How the results depend on the processing

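Counts of genes depended on the scale. With a pseudocount of 0.1 there were 2285 genes higher and 1043 lower by 1 or more, with one of 10 there were 332 and 68, and among genes in at least 50% of FL HSC there were 621 and 284. From the log2 of mean TPM there were 834 higher and 1082 lower, so that lower genes outnumbered higher ones. The lower count was also 811 within the strata by detected genes and 915 within the Y-linked and Xist strata. The mitosis median of 2.91 was 4.46 with a pseudocount of 0.1, 1.63 with one of 10 and 1.63 with cells divided at Birc5 above 0. The DNA replication median of 1.78 was 1.16 with a pseudocount of 10, 1.16 from the log2 of mean TPM and 1.13 with cells divided at Birc5 above 0. The CD11b+CD48+SK median of the genes higher in FL HSC was 0.49 from the log2 of mean TPM and 0.36 within the strata by detected genes. The cause of these shifts was not tested. Scaling cells by the median ratio, and dividing at 10 TPM, kept these 5 values within 1.5 times. Divided at Birc5 above 0, Ly6a (0.11), Meis1 (-0.10), Hoxa10 (0.38) and Sytl1 (0.20) took the opposite sign. Hoxb5 (1.15) did too under that division, and Kit (-0.09) and Itgam (-0.22) took the opposite sign under 3 alternatives each. No other recomputed named gene changed sign. WT-MPP (4 Birc5-expressing cells) and BM HSC (0) fell under the 5 cells required on each side and were not divided, and the Y-linked and Xist strata were too small in CD11b+CD48+SK cells. No paired analysis was possible because the labels tie no cell to an embryo or mouse. TPM holds no depth, so cells with few reads cannot be told from cells with few transcripts.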
